A study of Mus musculus with 2 samples.

Results

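The genes described here are 10 components of the kinase module that links inflammatory receptors to NF-kB and MAP kinases: the kinase TAK1 (Map3k7), its binding partners Tab1, Tab2 and Tab3, the IKK subunits Chuk (IKKα), Ikbkb (IKKβ) and Ikbkg (NEMO), the adaptors Traf2 and Traf6, and the kinase TPL2 (Map3k8). They were taken by gene symbol, and all 10 were found among the 32285 genes listed in both libraries. Their UMIs (unique molecular identifiers, each marking 1 captured transcript) were summed over the cells of each cell class. KPPC mice, aged 6 weeks, bore pancreatic tumours and were given either vehicle or takinib, a small-molecule TAK1 inhibitor, at 50 mg/kg for 14 days. Each of the 2 groups is 1 droplet-based single-cell library of dissociated tumour. The labels give the genotype by its name alone, so alleles, Cre driver and number of pooled mice are not given in the sources used here; KPPC mice develop pancreatic ductal cancer through engineered mutations, which both groups carry. With 1 library per group no test of treatment was possible, no value has a replicate check, and all intervals are 95% intervals for counting error alone.

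TAK1 sits near the top of a relay. TRAF proteins at activated Toll-like, interleukin-1 and TNF receptors build ubiquitin chains, TAB2 or TAB3 bind those chains and bring TAK1 to them, and TAB1 binds TAK1 and promotes its activity. Active TAK1 phosphorylates IKKβ and MAP kinase kinases; the IKK complex of IKKα, IKKβ and NEMO then marks IκB for destruction and frees NF-kB. TPL2 is held inactive by the NF-kB precursor p105, and once IKK releases it, it activates MEK1 and MEK2 independently of TAK1's own MAP kinase branch. In pancreatic cancer this network is known for inflammatory and survival signalling in tumour cells and for cytokine production in myeloid cells.

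After the same limits on both libraries and removal of likely doublets, the vehicle library retained 9541 cells (41904734 UMIs, 13886 of them from the 10 genes) and the takinib library 25183 cells (119726977 UMIs, 42887 from the 10 genes). Classes are called "like" a cell type because they rest on marker genes; every marker of each compared class was detected in that class. Compared were the 6 classes that reached 100 cells in both libraries (vehicle then takinib): macrophage-like 5016 and 7323, neutrophil-like 284 and 12532, epithelial-like 1154 and 1070, fibroblast-like 637 and 304, T-like 238 and 1030, and B-like 207 and 668. Several technical features went with the treatment. Vehicle cells had a median mitochondrial share of 8.70% and takinib cells 1.79%, the deposited takinib barcodes were already filtered while the vehicle ones were not, and vehicle held cells of both sexes while takinib held no Y-linked UMI. Transcripts of neutrophils were also spread over the takinib library: the 9 neutrophil markers summed to between 4122 and 13157 CPM (the gene's UMIs as a share of all UMIs of the class, in counts per 1e6) in the 5 other takinib classes, against 91.9 to 367 CPM in vehicle, and 8 or 9 of the 9 were higher in takinib in each class. In vehicle, Ly6g was at 0 in B-, T- and fibroblast-like cells, Hdc in B-like and Retnlg in T-like cells, and none of the 9 was at 0 in takinib. By design, none of these features can be separated from the treatment. A further 400 barcodes past the limits occurred in both libraries.

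**Figure D1:**
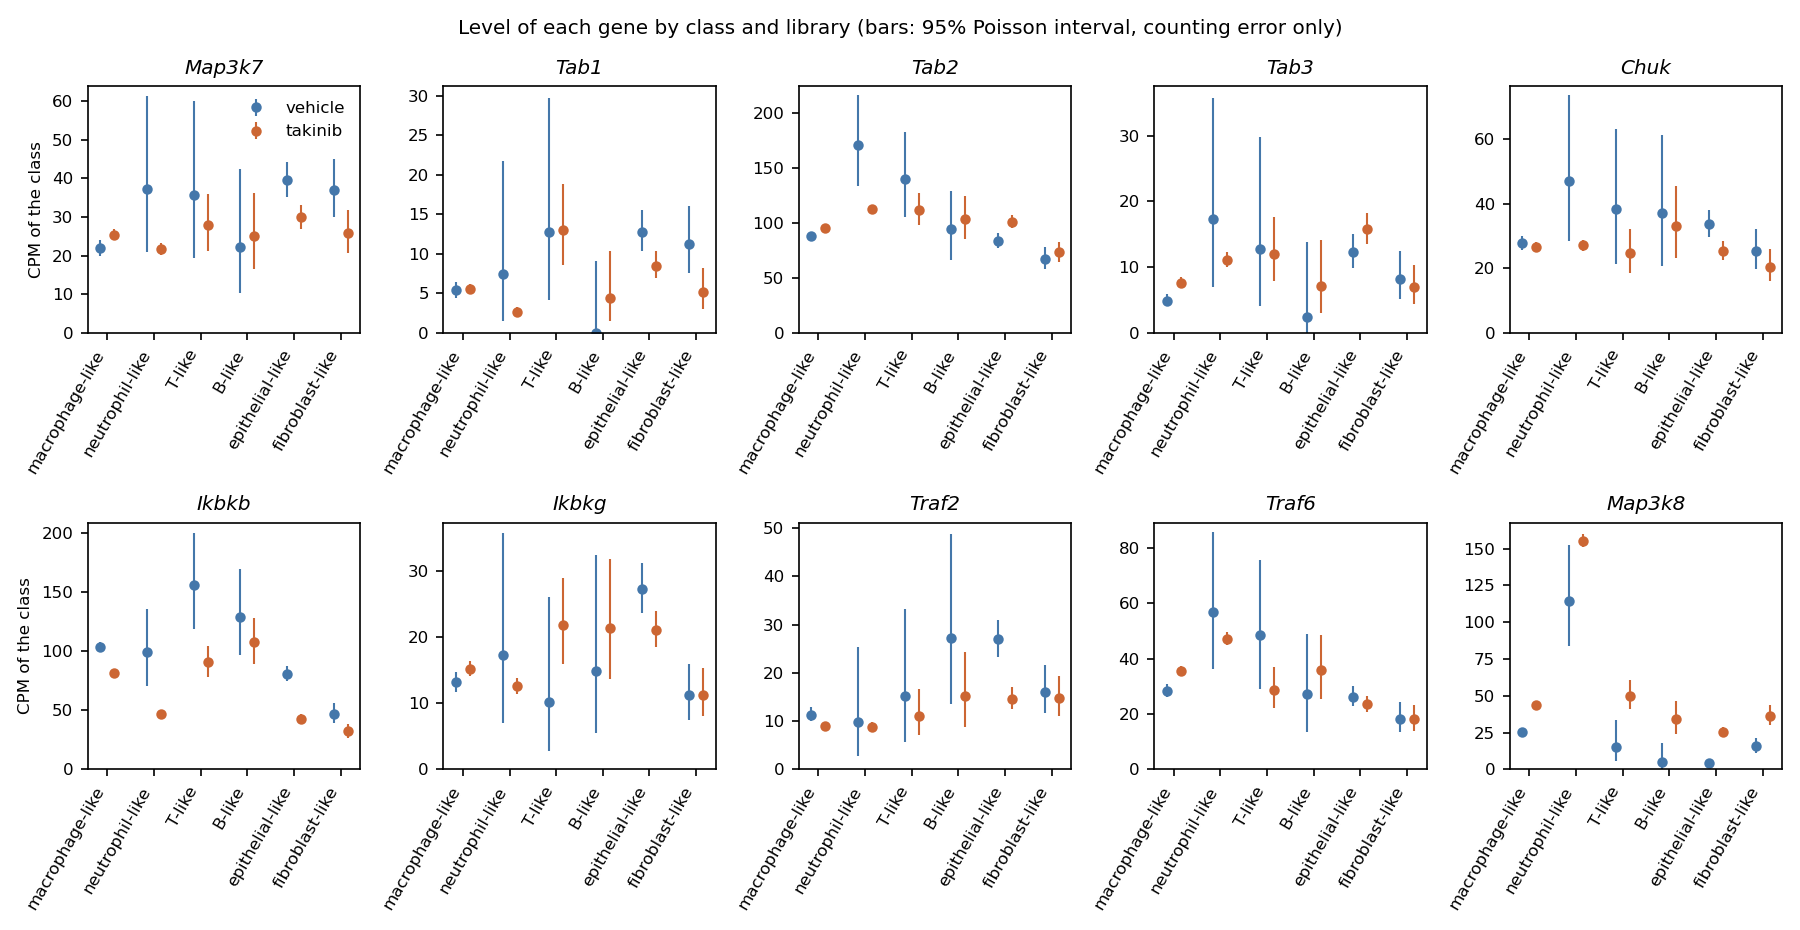
Level of each of the 10 genes, in CPM of the class (linear axis from 0), in the 6 compared classes; points are 1 library each and bars are 95% Poisson intervals. Map3k8 lay higher in takinib in all 6 classes, Ikbkb, Chuk and Traf2 lower in all 6 (Traf2 in only 4 once each class is scaled to its median gene), and the other 6 genes higher in some classes and lower in others. Chuk and Traf2 passed 1 in some classes against female vehicle cells alone or with each cell thinned to 1000 UMIs.

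The 10 genes and 6 classes give 60 pairs, of which 49 had at least 50 UMIs over both libraries. A pair was counted as higher or lower when the takinib and vehicle CPM differed by at least 1.5-fold. Of the 49 pairs, 6 were higher in takinib and 12 lower. Over all genes in the same classes, 14.3% of pairs were higher and 24.8% lower, so neither share of the 10 genes stood far from the background. When each class was scaled so that its median gene had a ratio of 1, the split became 7 higher and 5 lower, beside 18.8% and 17.7% over all genes; the median gene ratio before scaling was 0.684 in neutrophil-like cells and between 0.895 and 1.03 in the other 5 classes. Within the 8 single named clusters that held 100 cells in each library, 6 of 63 pairs were higher and 4 lower, against 14.1% and 13.7% over all genes in those clusters.

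By class, 2 of the 10 genes were higher and none lower in macrophage-like cells (Map3k8 and Tab3; all genes, 12.5% higher and 15% lower). In epithelial-like cells Map3k8 alone was higher, and Ikbkb, Traf2 and Tab1 were lower (13.4% and 21.9%). In fibroblast-like cells 8 genes reached 50 UMIs, of which Map3k8 was higher and none was lower (14.5% and 25%). In neutrophil-like cells none was higher and 6 were lower, namely Map3k7, Tab1, Tab2, Tab3, Chuk and Ikbkb; there 48.5% of all genes were lower and 16.5% higher. In T-like cells 7 reached 50 UMIs, with Map3k8 and Ikbkg higher and Chuk, Ikbkb and Traf6 lower (15.4% and 17.1%). In B-like cells 4 reached it and none was counted in either direction (15.1% and 10.2%). Over all kept cells together, Map3k8 was higher and Traf2 lower by this measure, where 12.3% of all genes were higher and 34.4% lower.

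**Figure D2:**
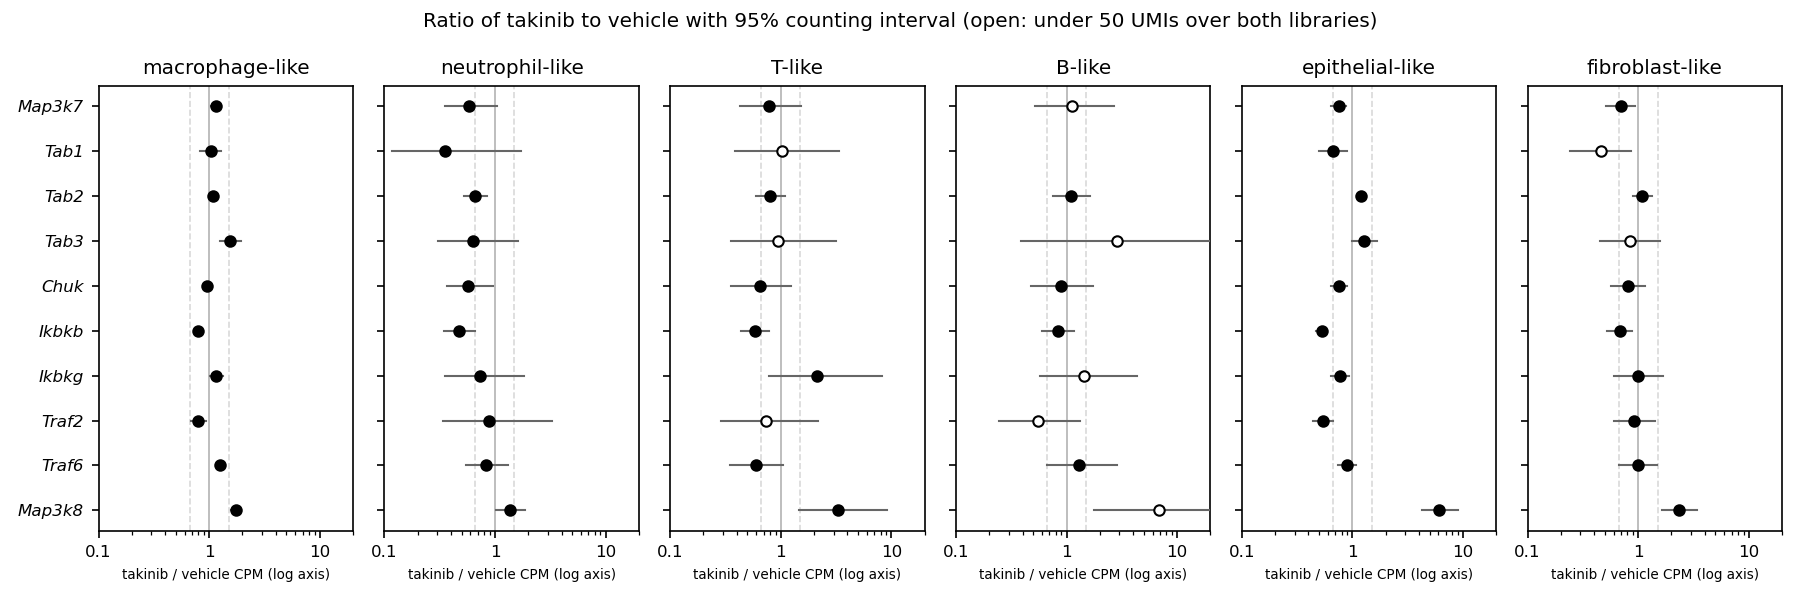
Ratio of takinib to vehicle CPM (log axis) for the 10 genes in 6 classes, with 95% counting intervals; open points have under 50 UMIs over both libraries, dashed lines mark 1.5-fold, bars stop at the axis limits, and Tab1 in B-like cells is absent because vehicle held 0 UMIs. The Map3k8 points lie right of 1, and the Ikbkb, Chuk and Traf2 points left of 1, in all 6 panels; scaled to the median gene, Traf2 passes 1 in fibroblast-like (1.02) and neutrophil-like cells (1.29).

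Map3k8 (ENSMUSG00000024235, minus strand of chromosome 18, 4331327 to 4353015 in GRCm38) had the widest difference of the set. In macrophage-like cells it measured 25.2 CPM in vehicle and 44.1 CPM in takinib, a ratio of 1.75 (1.59 to 1.92). In epithelial-like cells 32 UMIs (4.18 CPM) stood against 291 (25.6 CPM), a ratio of 6.11 (4.24 to 9.11). Takinib was therefore the higher library in both the macrophage-like and the epithelial-like class, with intervals that excluded 1. The epithelial-like class was mixed, and a cluster in it led by Gkn2 and Muc5ac held 0 vehicle and 217 takinib cells. Fibroblast-like cells went from 15.7 to 36.5 CPM, a ratio of 2.32 (1.63 to 3.38). T-like cells held 6 and 108 UMIs, 15.3 and 50.2 CPM, a ratio of 3.28 (1.46 to 9.13). The B-like class rested on 2 and 38 UMIs, under the 50 required, with a ratio of 6.84 (1.77 to 58.5). Neutrophil-like cells, which carried the most Map3k8 of the compared classes in either library, measured 114 CPM (46 UMIs) and 155 CPM (5181 UMIs), a ratio of 1.36 (1.02 to 1.86). All 6 ratios were above 1, and over all kept cells the levels were 17.8 and 70.7 CPM, a ratio of 3.97 (3.68 to 4.28), a value that also carries the larger neutrophil-like share of takinib (49.8% of kept cells, against 2.98%).

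Because Map3k8 was most abundant in neutrophil-like cells, and their transcripts occurred throughout takinib, the takinib neutrophil-like profile was subtracted from each other class in proportion to S100a8 and S100a9. Between 2.92% (B-like) and 9.20% (epithelial-like) of a class's takinib UMIs were removed in this way. The Map3k8 ratio was then 1.46 in macrophage-like, 2.97 in epithelial-like, 1.85 in fibroblast-like, 2.58 in T-like and 6.103 in B-like cells. The direction held in these 5 classes, the epithelial-like ratio moved by more than 1.5-fold, and the macrophage-like one no longer reached 1.5.

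Single clusters separated the macrophage-like difference further. The vehicle class was mostly a cluster led by the MHC class II genes H2-Ab1 and H2-Eb1 (2974 of 5016 cells), whereas takinib was mostly clusters led by U90926 and Saa3 (2384 cells) and by Chil3 and Atp6v0d2 (1848 cells). Map3k8 had a ratio of 1.57 (1.23 to 1.99) inside the H2-Ab1 cluster, and 1.48 after subtraction, under the 1.5-fold mark. Inside the cluster led by Ccl8 and Gpnmb the ratio was 1.15 (0.891 to 1.49), and inside the Chil3 cluster it was 1.15 (0.952 to 1.39), so both intervals included 1. The macrophage-like clusters found almost wholly in takinib had 47.5 CPM (U90926), 55.3 CPM (Vcan, Ms4a4c) and 57.8 CPM (Gpnmb, Marco), above every macrophage-like cluster shared by the libraries. In the main epithelial-like cluster, led by Cdkn2a and Hmga2, Map3k8 measured 3.43 and 21.6 CPM, a ratio of 6.32 (4.07 to 10.3), and 2.74 after subtraction. An unnamed cluster with epithelial and acinar markers, led by Tff2 and Reg1, had a ratio of 2.77 (1.64 to 5.01), and 1.36 after subtraction.

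The neutrophil-like class also differed in makeup. In vehicle 261 of its 284 cells fell in a cluster led by Ctsk and Siglecf, where the libraries had 131 and 122 CPM of Map3k8, a ratio of 0.930 (0.626 to 1.39). The remaining takinib neutrophil-like clusters ranged from 47.2 CPM in the granule-gene cluster led by Camp and Ngp to 205 CPM in the chemokine cluster led by Ccl4 and Cstdc4. Clusters led by Ppy and Retnlg and by Chil1 lay between them, at 121 and 168 CPM. Map3k8 therefore varied more among neutrophil-like clusters of takinib than between the libraries in the only neutrophil-like cluster with 100 cells of each.

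**Figure D3:**
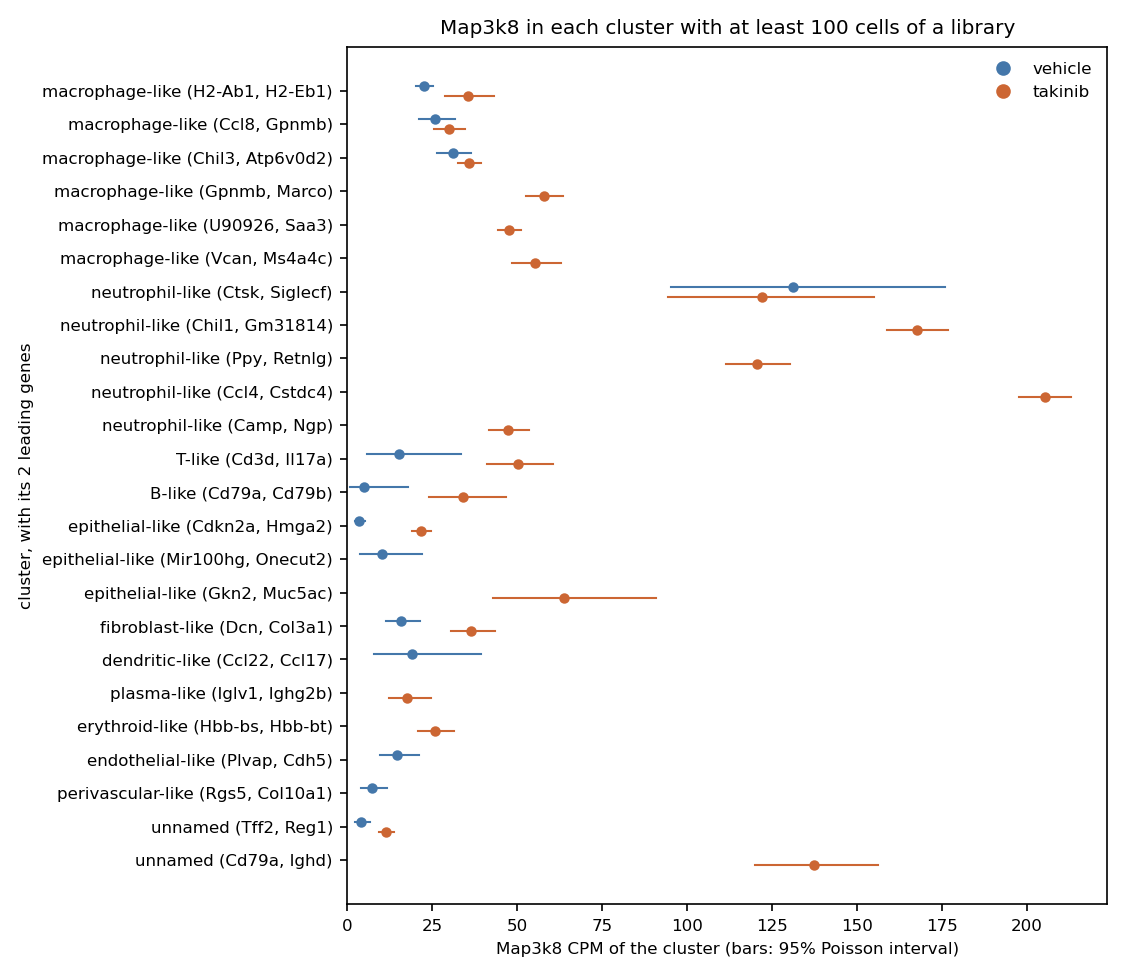
Map3k8 level (CPM, linear axis) in every cluster with at least 100 cells of a library, labelled by class and 2 leading genes; bars are 95% Poisson intervals. The neutrophil-like clusters reach 205 CPM, the clusters shared by both libraries among macrophage-like cells lie between 22.5 and 35.7 CPM, and the vehicle epithelial-like cells are among the lowest.

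Ikbkb (ENSMUSG00000031537, minus strand of chromosome 8, 22659212 to 22706589), the kinase subunit of canonical NF-kB activation, went the other way. In macrophage-like cells it measured 103 CPM in vehicle and 81.2 CPM in takinib, a ratio of 0.786 (0.746 to 0.828). Epithelial-like cells had 80.8 and 42.6 CPM, a ratio of 0.528 (0.468 to 0.595). Fibroblast-like cells had 47.1 and 32.1 CPM, a ratio of 0.683 (0.524 to 0.888). Vehicle was thus the higher library in all 3 of these large classes. T-like cells had 156 and 90.6 CPM, a ratio of 0.582 (0.434 to 0.789), and neutrophil-like cells 99.2 and 46.8 CPM, a ratio of 0.472 (0.345 to 0.663). The B-like levels of 129 and 107 CPM gave 0.831 (0.595 to 1.17). Intervals lay below 1 in 5 of the 6 classes, and over all kept cells 89.2 and 60.3 CPM gave 0.676 (0.650 to 0.704), beside a median gene ratio of 0.795.

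The size of the Ikbkb difference depended on which cells stood in a class. An epithelial-like cluster led by Mir100hg, with Malat1 and Neat1 also among its leading genes, held 262 vehicle and 39 takinib cells and had 328 CPM of Ikbkb in vehicle, whereas the main epithelial-like cluster of vehicle had 61.5 CPM. Without that nuclear-RNA-rich cluster the epithelial-like ratio was 0.706, under the 1.5-fold mark, and inside the main cluster it was 0.683 (0.595 to 0.785). In the neutrophil-like cluster found in both libraries the ratio was 0.756 (0.461 to 1.25). Among macrophage-like clusters it was 0.918 (0.803 to 1.05) in the H2-Ab1 cluster, 0.799 (0.692 to 0.923) in the Ccl8 cluster and 0.860 (0.771 to 0.962) in the Chil3 cluster. After subtraction of the neutrophil-like profile the other 5 class ratios were all below 1, between 0.522 and 0.845.

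Chuk (ENSMUSG00000025199, minus strand of chromosome 19, 44073335 to 44107480), the kinase subunit required for the alternative NF-kB branch, differed less. Macrophage-like cells had 27.8 and 26.7 CPM, a ratio of 0.961 (0.872 to 1.06). Epithelial-like cells had 33.6 and 25.4 CPM, a ratio of 0.756 (0.637 to 0.898). Neutrophil-like cells had 47.1 CPM from 19 UMIs and 27.1 CPM, a ratio of 0.575 (0.366 to 0.959). The T-like ratio of 0.643 (0.357 to 1.23) rested on 15 vehicle UMIs, and it was 1.502 when every cell was thinned to 1000 UMIs. The fibroblast-like ratio was 0.809 (0.572 to 1.15) and the B-like one 0.888 (0.476 to 1.74). All 6 values were below 1, but only the epithelial-like and neutrophil-like intervals were.

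The mix of UMIs between the IKK kinase subunits was compared next. Chuk made up 25.2% of the Chuk and Ikbkb UMIs of all vehicle cells (24.0 to 26.4) and 30.4% in takinib (29.5 to 31.3). The share was 21.2% and 24.7% in macrophage-like cells and 29.4% and 37.3% in epithelial-like cells, with intervals that did not overlap in either class. Inside these single clusters they did overlap: the shares were 33.5% and 36.1% in the main epithelial-like cluster, 20.3% and 23.6% in the H2-Ab1 cluster, 23.0% and 24.3% in the Ccl8 cluster, and 22.8% and 25.4% in the Chil3 cluster. Without the Mir100hg-led cluster the epithelial-like shares were 33.6% and 37.2%, with overlapping intervals. The class shares were 35.1% and 39.0% in fibroblast-like cells and 32.2% and 36.7% in neutrophil-like cells, where the intervals overlapped. Takinib had the higher share in T-like (19.7% and 21.4%) and B-like cells (22.4% and 23.6%) too, well within counting error. Across classes the share ranged from 19.7% in vehicle T-like to 53.5% (41.3 to 65.5) in takinib plasma-like cells. These are shares of UMIs and not of transcripts per length, so they compare samples and not the amounts of the 2 kinases.

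**Figure D4:**
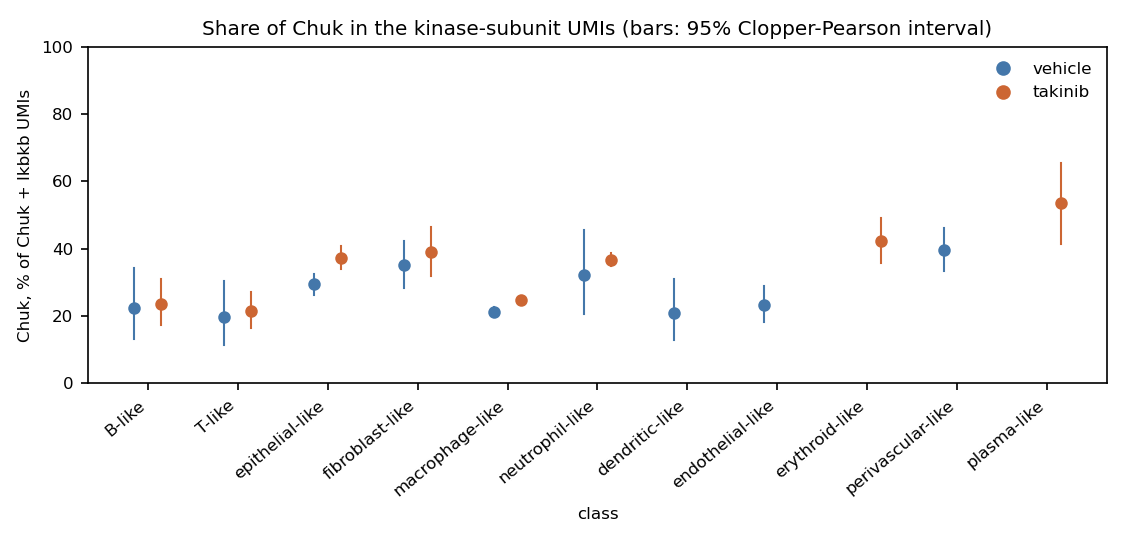
Chuk as a percentage of Chuk plus Ikbkb UMIs (linear axis, 0 to 100) in each class with at least 100 cells of a library; bars are 95% Clopper-Pearson intervals. Takinib points lie above vehicle points in all 6 classes with both libraries, with epithelial-like shares of 29.4% and 37.3% that become 33.6% and 37.2% without the Mir100hg-led cluster, and the takinib plasma-like point is the highest at 53.5%.

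Ikbkg (ENSMUSG00000004221, plus strand of the X chromosome, 74393290 to 74453854) encodes NEMO, the regulatory subunit through which ubiquitin chains engage IKK. Its levels were 13.2 and 15.3 CPM in macrophage-like cells, a ratio of 1.16 (1.01 to 1.33). In epithelial-like cells they were 27.3 and 21.2 CPM, a ratio of 0.775 (0.642 to 0.938). T-like cells had 4 and 47 UMIs, a ratio of 2.14 (0.782 to 8.18), whose interval included 1 although the value passed 1.5-fold. Fibroblast-like, neutrophil-like and B-like ratios were 1.01, 0.728 and 1.44, each with an interval that included 1. Under the alternative settings the fibroblast-like ratio ran from 0.944 to 2.93, and scaling to the median gene turned the neutrophil-like ratio to 1.06. Ikbkg shares 418 exonic bases with G6pdx on the opposite strand, and the strand setting of the counting is not given in the sources used here, so its UMIs carry that uncertainty.

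Map3k7 (ENSMUSG00000028284, plus strand of chromosome 4, 31964097 to 32023467), the transcript of the drug's target, is a check on neither the labels nor the drug's action, since takinib inhibits the kinase and not its mRNA. Over all kept cells it measured 29.2 CPM in vehicle and 24.4 CPM in takinib, a ratio of 0.835 (0.781 to 0.893). That value lay above the median gene ratio of 0.795, and scaling to that median turned it to 1.05. Classes did not share a direction. Macrophage-like cells had 22.0 and 25.4 CPM, a ratio of 1.16 (1.04 to 1.29). Epithelial-like cells had 39.6 and 29.9 CPM, a ratio of 0.755 (0.644 to 0.884), and fibroblast-like cells 37.0 and 25.8 CPM, a ratio of 0.697 (0.517 to 0.937). Inside the shared macrophage-like clusters the ratios were 0.877 (0.640 to 1.18) for H2-Ab1, which holds most vehicle cells of the class, 1.23 (0.938 to 1.62) for Ccl8 and 1.24 (0.988 to 1.56) for Chil3, so that all 3 intervals included 1. Neutrophil-like cells had only 15 vehicle UMIs (37.2 CPM, against 21.8 CPM), a ratio of 0.585 (0.352 to 1.05). T-like and B-like ratios of 0.780 and 1.12 had intervals on both sides of 1. Without the Mir100hg-led cluster the epithelial-like ratio was 0.871, and inside the main epithelial-like cluster it was 0.854 (0.716 to 1.02).

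Tab2 (ENSMUSG00000015755, minus strand of chromosome 10, 7905653 to 7956230), a ubiquitin-chain adaptor of TAK1, varied little. Macrophage-like cells had 87.8 and 95.3 CPM, a ratio of 1.09 (1.03 to 1.15), and epithelial-like cells 83.7 and 101 CPM, a ratio of 1.21 (1.09 to 1.33). Fibroblast-like (1.09), T-like (0.798) and B-like (1.10) ratios had intervals that included 1. Only neutrophil-like cells passed 1.5-fold, with 171 CPM from 69 UMIs and 113 CPM, a ratio of 0.660 (0.520 to 0.8502), and their shared cluster had 0.722 (0.514 to 1.02).

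Tab3 (ENSMUSG00000035476, plus strand of the X chromosome, 85574022 to 85634469), which binds the same chains, had 107 and 380 UMIs in macrophage-like cells, 4.93 and 7.65 CPM, a ratio of 1.55 (1.25 to 1.94). The ratio was 1.95 (1.14 to 3.21) in the H2-Ab1 cluster, and 1.21 and 1.18 in the Ccl8 and Chil3 clusters, with intervals that included 1. Against female vehicle cells alone the macrophage-like ratio was 1.13, under the 1.5-fold mark. Epithelial-like cells had 12.3 and 15.8 CPM, a ratio of 1.29 (0.998 to 1.67), and 1.53 without the Mir100hg-led cluster. In neutrophil-like cells 7 vehicle UMIs gave 0.639 (0.307 to 1.60).

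Tab1 (ENSMUSG00000022414, plus strand of chromosome 15, 80133127 to 80161707), the activating partner of TAK1, was sparse. It had 5.39 and 5.56 CPM in macrophage-like cells, a ratio of 1.03 (0.828 to 1.29). Epithelial-like cells had 98 and 97 UMIs, 12.8 and 8.53 CPM, a ratio of 0.666 (0.497 to 0.890), which was 0.739 without the Mir100hg-led cluster. Fibroblast-like cells had 30 and 18 UMIs, under the limit of 50, and a ratio of 0.465 (0.244 to 0.862). That ratio was 1.20 when each cell was thinned to 1000 UMIs, so its direction turned. In neutrophil-like cells 3 vehicle UMIs against 87 gave 0.351 (0.116 to 1.73), and in B-like cells 0 vehicle and 5 takinib UMIs gave no ratio.

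Traf6 (ENSMUSG00000027164, plus strand of chromosome 2, 101678429 to 101701669), the ubiquitin ligase of Toll-like and interleukin-1 receptor signalling, had 28.4 and 35.7 CPM in macrophage-like cells, a ratio of 1.26 (1.15 to 1.38). The shared clusters did not move together: the ratio was 1.29 (1.02 to 1.61) in the H2-Ab1 cluster, 0.761 (0.598 to 0.970) in the Ccl8 cluster and 1.11 (0.888 to 1.39) in the Chil3 cluster. Epithelial-like (0.893) and fibroblast-like (0.996) ratios had intervals that included 1. T-like cells had 19 and 62 UMIs, a ratio of 0.594 (0.351 to 1.05). Neutrophil-like cells had the highest levels of Traf6 among the compared classes, 57.0 and 47.1 CPM, a ratio of 0.826 (0.548 to 1.31). Scaled to the median gene of the class, that ratio was 1.21.

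Traf2 (ENSMUSG00000026942, minus strand of chromosome 2, 25517982 to 25546940), the adaptor of TNF receptor signalling, was lower in takinib in epithelial-like cells, with 26.9 and 14.6 CPM and a ratio of 0.542 (0.439 to 0.668). The difference was as large inside the main epithelial-like cluster, 0.528 (0.424 to 0.658), and without the Mir100hg-led cluster, 0.537. The unnamed Tff2 cluster gave 0.476 (0.338 to 0.672). Macrophage-like cells had 11.4 and 9.04 CPM, a ratio of 0.795 (0.679 to 0.932). Fibroblast-like, neutrophil-like, T-like and B-like ratios ran from 0.557 to 0.919 with intervals that included 1. With each cell thinned to 1000 UMIs the T-like ratio was 1.73 and the fibroblast-like ratio 1.14. Scaling to the median gene gave 1.29 in neutrophil-like cells. Traf2 made up 50.6% of the Traf2 and Traf6 UMIs of vehicle epithelial-like cells (45.6 to 55.6) and 38.3% in takinib (33.7 to 43.1). In macrophage-like cells the share was 28.6% and 20.2%, again with intervals that did not overlap. Against female vehicle macrophage-like cells that direction turned, with 13.7% (6.77 to 23.8) from 10 Traf2 UMIs below the 20.2% of takinib, and the shares were 27.7% and 30.1% in the Ccl8 cluster, 29.3% and 23.3% in the H2-Ab1 cluster and 28.3% and 22.4% in the Chil3 cluster, all with overlapping intervals. In the main epithelial-like cluster they were 52.6% (47.2 to 58.0) and 39.5% (34.7 to 44.6).

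Sex was confounded with treatment, which bears on Tab3 and Ikbkg as X-linked genes. Among kept vehicle cells, 1073 held Xist UMIs and no Y-linked UMI (female cells below) and 3083 the reverse (male), and 14324 takinib cells held Xist. Female and male vehicle cells come from different mice, so a difference between sexes cannot be told apart from a difference between animals. In epithelial-like cells Tab3 measured 21.7 CPM (20 UMIs) in female vehicle, 10.3 CPM in male vehicle and 16.1 CPM in female takinib cells. Against female vehicle cells alone, the ratio over all takinib epithelial-like cells was 0.730 and so changed direction. In macrophage-like cells Ikbkg measured 18.0 CPM in female vehicle, 11.5 CPM in male vehicle and 15.4 CPM in female takinib cells, and the ratio against female vehicle was 0.849, below 1. The autosomal Traf2 also differed between the vehicle sexes in macrophage-like cells, with 3.75 CPM from 10 UMIs in female and 12.2 CPM in male cells, and its ratio against female vehicle was 2.41. Traf6 in epithelial-like cells (1.20), Traf6 in fibroblast-like cells (1.18) and Chuk in macrophage-like cells (1.11) passed to the other side of 1 as well. Map3k8 in macrophage-like cells was 24.4 CPM in female and 26.7 CPM in male vehicle against 44.2 CPM in female takinib cells, and Ikbkb 99.4, 105 and 80.8 CPM.

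**Figure D5:**
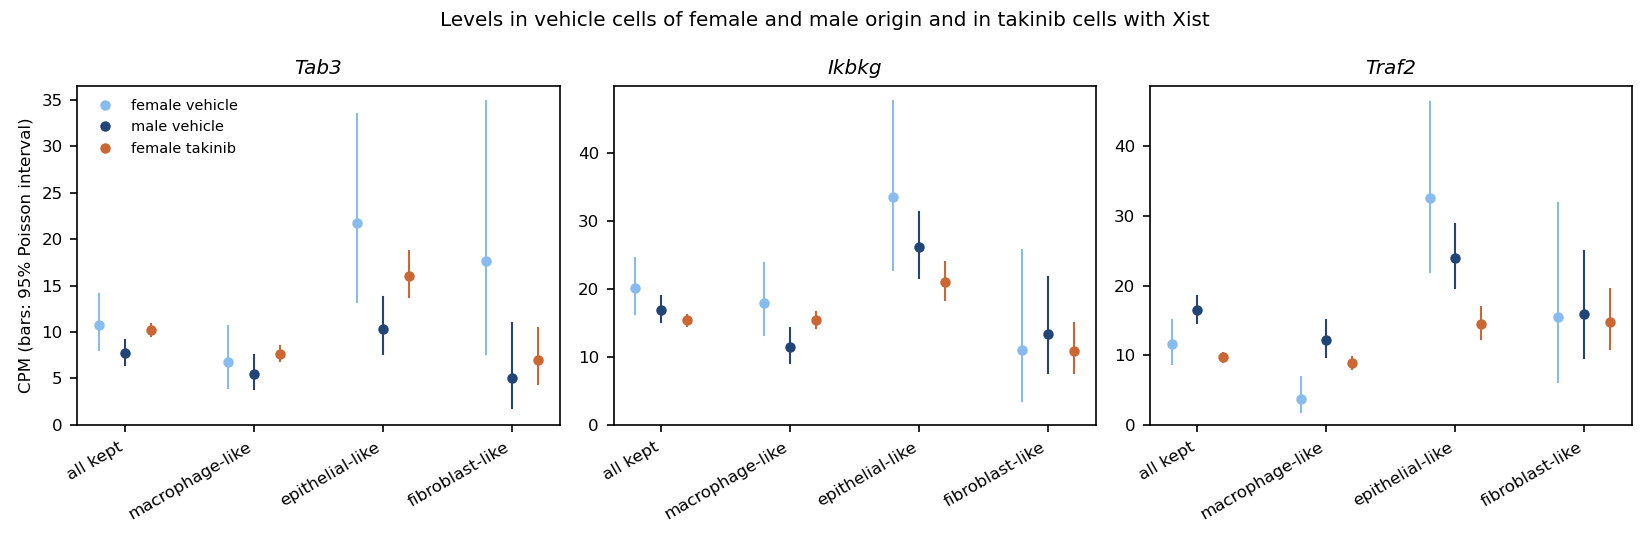
Levels (CPM, linear axes from 0) of Tab3, Ikbkg and Traf2 in vehicle cells with Xist only, vehicle cells with Y-linked UMIs only, and takinib cells with Xist, over all kept cells and 3 classes; bars are 95% Poisson intervals. In macrophage-like cells female vehicle lies above male vehicle for Ikbkg (18.0 and 11.5 CPM) and below it for Traf2 (3.75 and 12.2 CPM).

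Across the 17 pairs of class and library with at least 100 cells, Map3k7 ranged from 18.5 CPM in takinib plasma-like to 45.0 CPM in vehicle perivascular-like cells. Its top 3, perivascular-like, endothelial-like (41.2 CPM) and epithelial-like cells of vehicle (39.6 CPM), did not differ beyond their counting intervals. Tab2 ran from 51.5 CPM in takinib plasma-like to 171 CPM in vehicle neutrophil-like cells, followed by vehicle T-like (140 CPM) and dendritic-like cells (126 CPM), with overlapping intervals. Ikbkb ran from 17.0 CPM (11.7 to 23.9) in takinib plasma-like to 186 CPM (144 to 235) in vehicle dendritic-like cells. Takinib fibroblast-like (32.1 CPM) and erythroid-like cells (33.5 CPM) came next above plasma-like cells, and vehicle T-like cells (156 CPM) next below dendritic-like ones. Map3k8 ran from 4.18 CPM in vehicle epithelial-like to 155 CPM in takinib neutrophil-like cells. Its lowest 3, vehicle epithelial-like, B-like (4.97 CPM) and perivascular-like cells (7.13 CPM), were not separated beyond counting error, and the next highest after the neutrophil-like pairs was takinib T-like at 50.2 CPM. Plasma-like takinib cells were the lowest pair for Map3k7, Tab2, Ikbkb, Chuk (19.6 CPM), Ikbkg (7.21 CPM) and Traf2 (7.21 CPM), but of these 6 only Ikbkb was separated from its nearest neighbour beyond counting error. CPM is a share of all UMIs, and the plasma-like cluster was led by immunoglobulin genes. Per 100 cells it held 18 Map3k7 and 16.5 Ikbkb UMIs in takinib, more than takinib neutrophil-like cells (5.79 and 12.4). The median UMIs per cell were 8572.5 and 1867, so the low plasma-like CPM does not mean fewest UMIs per cell. Tab1, Tab3 and Traf6 had their highest values, none separated from the next beyond counting error, in takinib T-like (13.004 CPM), takinib erythroid-like (19.7 CPM) and vehicle neutrophil-like cells (57.0 CPM), respectively.

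The pattern of 4 genes over these 17 pairs was set beside that of 11819 other well-counted genes, by Pearson correlation of log2(CPM + 10). Map3k8 was most like Il1r2 (r = 0.936), Nfkbia (0.935) and Gbe1 (0.933). Ikbkb was most like Zmiz2 (0.933), Fnbp1 (0.910) and Exoc2 (0.908). Tab2 was most like Ppp1r18 (0.916), Capza1 (0.912) and Mob3a (0.906), and Map3k7 most like Zbtb41 (0.905), Epm2aip1 (0.904) and Hmgxb3 (0.891). Pairs of the same library share its depth and free RNA, so these are descriptions only. Among the 10 genes themselves the closest pair was Tab2 and Traf6 (0.785), followed by Chuk and Ikbkb (0.767).

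Of 46 further genes of the TAK1 and IKK network, all 46 had 50 UMIs in macrophage-like cells, where 7 were higher and 4 lower by 1.5-fold (all genes, 12.5% and 15%), with a median ratio of 0.978 beside 0.977 over all genes. In epithelial-like cells 45 qualified, with 7 higher and 6 lower (all genes, 13.4% and 21.9%) and a median of 0.937 (all genes, 0.895). After subtraction of the neutrophil-like profile, with no UMI limit, only Irak2, Irak3 and Tnfaip3 of the 46 were higher there by 1.5-fold. Lower by as much were Rnf31, Rbck1, Map3k2, Map3k4, Map3k11, Nfkb1 and Tbkbp1. In fibroblast-like cells 41 qualified, with 5 higher and 3 lower (14.5% and 25%) and a median of 1.01 (0.900). In neutrophil-like cells 45 qualified, with 9 higher and 18 lower (16.5% and 48.5%) and a median of 0.761 (0.684). In T-like cells 35 qualified, with 5 higher and 4 lower (15.4% and 17.1%) and a median of 0.938 (0.960). In B-like cells 24 qualified, with 4 higher and 2 lower (15.1% and 10.2%) and a median of 1.11 (1.03).

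At 2-fold, 3 of the 46 were higher and none lower in macrophage-like cells (all genes, 6.57% and 7.39%). They were Traf1, a TRAF induced by NF-kB, with 8.93 and 55.8 CPM, Irak3, the inhibitory IRAK of Toll-like receptor signalling, with 12.9 and 106 CPM, and Tnfaip3, the deubiquitinase A20, with 71.6 and 188 CPM. In fibroblast-like cells the same 3 genes were higher and none of the 46 was lower (6.6% and 11.4%), with ratios of 14.1 for Traf1 from 4 vehicle UMIs, 2.96 for Irak3 and 3.62 for Tnfaip3; after subtraction of the neutrophil-like profile these were 5.67, 1.93 and 2.24, so Irak3 no longer passed 2-fold. In epithelial-like cells 6 were higher and none lower (7.7% and 8.64%): Irak3 with a ratio of 14.6, Tnfaip3 4.20, Irak2 2.45, the IKK-related kinase Ikbke 2.39, Traf1 2.09 and the ubiquitin ligase Birc3 2.06. After subtraction of the neutrophil-like profile, Irak3 (5.88), Tnfaip3 (2.70) and Irak2 (2.07) still passed 2-fold there, while Birc3 was 1.32, Ikbke 1.04 and Traf1 1.03. In macrophage-like cells the subtracted ratios were 6.93 for Irak3, 5.03 for Traf1 and 2.33 for Tnfaip3. Values inside single clusters are not given for these network genes, although the libraries differed in their macrophage-like clusters.

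In neutrophil-like cells 5 of the 45 were higher and 9 lower at 2-fold (all genes, 11.9% and 31.7%). Higher were Traf1 (15.1), Irak3 (7.97), the MAP kinase kinase Map2k1 (4.45), the NOD-pathway kinase Ripk2 (2.40, from 3 vehicle UMIs) and Ikbke (2.28). Lower were Traf4, Traf5, Birc2, Rbck1, Cyld, Usp18, Tbkbp1, Map3k4 and Map2k7, with ratios from 0.210 to 0.493. Map2k1 encodes MEK1, the direct substrate of TPL2, and it measured 48.0 and 72.9 CPM in macrophage-like cells, a ratio of 1.52 (1.42 to 1.63). After subtraction of the neutrophil-like profile that ratio was 1.47, under the 1.5-fold mark. The partners that hold TPL2, Nfkb1 (p105) and Tnip2 (ABIN-2), had macrophage-like ratios of 0.962 and 0.798 and neutrophil-like ratios of 1.88 and 0.679.

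Vehicle barcodes with at most 100 UMIs, which hold mostly free RNA, numbered 376283 and held 652323 UMIs. There Map3k7 measured 27.6 CPM, Tab2 106 CPM, Ikbkb 98.1 CPM, Chuk 45.99 CPM, Traf6 18.4 CPM and Map3k8 16.9 CPM. Except for Chuk, these lay near the levels of all kept vehicle cells (29.2, 89.7, 89.2, 29.97, 27.4 and 17.8 CPM in the same order). The share of free RNA among the UMIs of vehicle cells was not estimated, so how much of a class level came from free RNA is not known. The takinib barcodes hold no such droplets for a matching value.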

How the data were processed

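Raw UMI counts, as deposited, came from Cell Ranger 4 (vehicle) and 6.1.1 (takinib), per the file headers; the submitters' processing notes list mm10 and Cell Ranger 2.1.1. Barcodes with at least 1000 UMIs, 500 genes and at most 20% mitochondrial UMIs were kept. Scrublet doublets were removed (331 in vehicle; in takinib the automatic threshold marked 0.0187%, so the top 6%, 1607 barcodes, were removed). Clustering was joint, in scanpy 1.11.5 (2000 variable genes, 30 components, 15 neighbours, Leiden resolution 1, igraph 0.11.9, no integration), and clusters were named from markers of 17 classes. Counts were summed per class and library and scaled to CPM; ratios carry no pseudocount. Intervals are exact (Poisson, or Clopper-Pearson for ratios and shares; scipy 1.17.1). PCR and sampling of animals are not covered. Positions come from GENCODE M21. The members, the gene lists and the rules were chosen with earlier results of these data known. Named genes are all 10 members, network genes past 2-fold in 4 classes, and the 3 genes most like each of 4 members. Of 16 alternatives, 14 were planned and 2 (single clusters; without the Mir100hg-led cluster) were added after seeing the data. Code was tested on simulated data.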

Additional observations from a re-analysis of the deposited data

Results flagged for a closer look

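For 3 genes the counting intervals of the takinib to vehicle ratio lay above 1 in some classes and below 1 in another; the difference between classes was not tested, since each class has 1 library per group. Map3k7 had 1.16 in macrophage-like cells, against 0.755 in the epithelial-like class and 0.697 in the fibroblast-like class. Inside clusters it was 0.854 (0.716 to 1.02) in the main epithelial-like one and 0.877, 1.23 and 1.24 in the shared macrophage-like ones, all with intervals that included 1. Tab2 had 1.21 in the epithelial-like class and 1.09 in macrophage-like cells, against 0.660 in neutrophil-like cells, where the median gene had 0.684; scaled to that median Tab2 was 0.965, and the shared neutrophil-like cluster gave 0.722 (0.514 to 1.02). Ikbkg had 1.16 in macrophage-like and 0.775 in epithelial-like cells. Inside the main epithelial-like cluster Ikbkg was 0.773 (0.630 to 0.948). Its macrophage-like ratio was 0.849 against female vehicle cells, and 1.20, 1.05 and 0.897 in the shared clusters, each with an interval that included 1.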

How the results depend on the processing

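Of 600 gene and class ratios under an alternative, 559 stayed within the counting interval of the reported value and 40 moved outside it. The remaining 1, Chuk in T-like cells, was counted as lower but reached 1.502 when each cell was thinned to 1000 UMIs. Pairs not counted in either direction at first also passed 1.5-fold the other way. Traf2 in macrophage-like cells went from 0.795 to 2.41 against female vehicle cells. With the same thinning, Traf2 in T-like cells went from 0.728 to 1.73, and Tab1 there from 1.02 to 0.635. Other ratios crossed 1 by less. The count of 6 pairs higher in takinib was 3 at Leiden resolution 2, and between 4 and 8 otherwise. The count of 12 lower pairs was 1 at a mitochondrial limit of 10%, 2 at 2000 UMIs and 1000 genes, and 5 against female vehicle cells; each of these compared only 3 classes and no neutrophil-like one. It was 4 with no doublets removed, where no neutrophil-like class was compared, 4 within single clusters, 2 at 2-fold, 6 with ratios of CPM + 10, and 5 when scaled to the median gene. Map3k7 over all kept cells was 0.902 at the 10% limit and 1.05 when scaled. Subtraction of the neutrophil-like profile could not be given for all kept cells, which include that class. With 1 library per group none could be left out. No paired analysis was possible because each group is 1 library. Depth limits T-like, B-like and neutrophil-like cells most, whose vehicle classes held 391991 to 403164 UMIs.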
